A study of Mus musculus with 92 samples.

Results

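Cers4, Cers5 and Cers6 are ceramide synthases often counted as minor forms in muscle beside Cers1 and Cers2, and their transcripts were followed here across the quadriceps of 92 mice. They were chosen by name and are 3 of the 13441 genes in the table. The animals were DOz mice, which come from an outbred stock and so differ from each other in genotype. All 92 formed 1 group: quadriceps of animals about 18 to 20 weeks old that had received standard chow for life, with no other treatment and no sex given in the labels. RNA was sequenced after library preparation with the KAPA mRNA HyperPrep kit from 500 ng of RNA. No treatment was compared, so the results are levels, their spread between animals, and the genes that varied with each synthase.

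Ceramide synthases join a fatty acyl-CoA to a sphingoid base in the endoplasmic reticulum, and each enzyme of the family prefers acyl chains of certain lengths. Cers5 and Cers6 favour palmitoyl-CoA, Cers4 favours longer saturated chains, Cers1 favours stearoyl-CoA and is the main form of muscle fibres and neurons, and Cers2 makes very long-chain ceramides in most tissues. Ceramide is then turned into sphingomyelin, glucosylceramide or ceramide phosphate, or broken down to sphingosine. The series as a whole concerns muscle ceramides and insulin resistance.

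The libraries were alike in scale, with sample medians from 3.43 to 3.55 on the log2 per-million scale, and the smallest root mean square log2 difference between any of the 4186 pairs of libraries was 0.521, against a median of 0.66. Read depth is unknown. The sample titles end in numbers that form 5 runs, called title-number blocks here, of 33, 14, 21, 11 and 13 animals, with no meaning given for these numbers. The tissue label fits its main transcript, since Myh4, the fast myosin heavy chain, had a mean of 15.90 ± 0.24 (SD, n = 92). The animal numbered 260 stood apart. It had the highest Cers6 level, 3.11 against 2.30 for the next animal, and, by a narrow margin, the highest Cers5 level, 3.05 against 3.02. It also had the highest level of the leukocyte gene Ptprc, 4.31 against 3.09 for the next animal, a level of embryonic myosin Myh3 of 8.35 against 8.06 for the next animal and a median of 4.15, and the lowest Myh4 and Tnnt3 levels of all 92 animals. Results that rest on this animal are given with and without it.

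Cers6 (ENSMUSG00000027035, GRCm38 chr2:68861441-69114282, plus strand) was the lowest and most variable of the 3. On the log2 per-million scale it ran from -1.40 through a median of 0.595 to 3.11, with a mean of 0.65 ± 0.71 (SD, n = 92), and 11 animals had values below 0. The median equals 1.51 on the linear per-million scale. From the lowest to the highest animal the level changed 22.8-fold, and between the quartiles 1.73-fold. The gap of 0.81 below animal 260 was the widest step between neighbouring animals.

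Cers4 (ENSMUSG00000008206, GRCm38 chr8:4493026-4531680, plus strand) ran from 1.59 through a median of 2.46 to 3.465, with a mean of 2.47 ± 0.41 (SD, n = 92), which is a 3.67-fold range. Its exons overlap those of 2 genes on the opposite strand in the annotation, Gm36956 and Vmn2r-ps89. Strand use in counting is not given in the sources used here, so reads of those genes cannot be told apart from Cers4. Cers5 (ENSMUSG00000023021, GRCm38 chr15:99734881-99772885, minus strand) was the most even of the 3, from 1.56 through a median of 2.25 to 3.05, with a mean of 2.27 ± 0.27 (SD, n = 92) and a 2.81-fold range. Cers1 and Cers2 had deposited levels of 4.22 ± 0.31 and 4.34 ± 0.21 (SD, n = 92), with no length scaling applied here, and 3.50-fold and 1.83-fold ranges. Exons of Cers1 overlap those of Gdf1 on the same strand over 1349 of 3171 bases, so reads from that shared part cannot be told apart. The level of every animal for each of the 5 genes is shown in the plot of levels by title-number block.

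**Figure D1:**
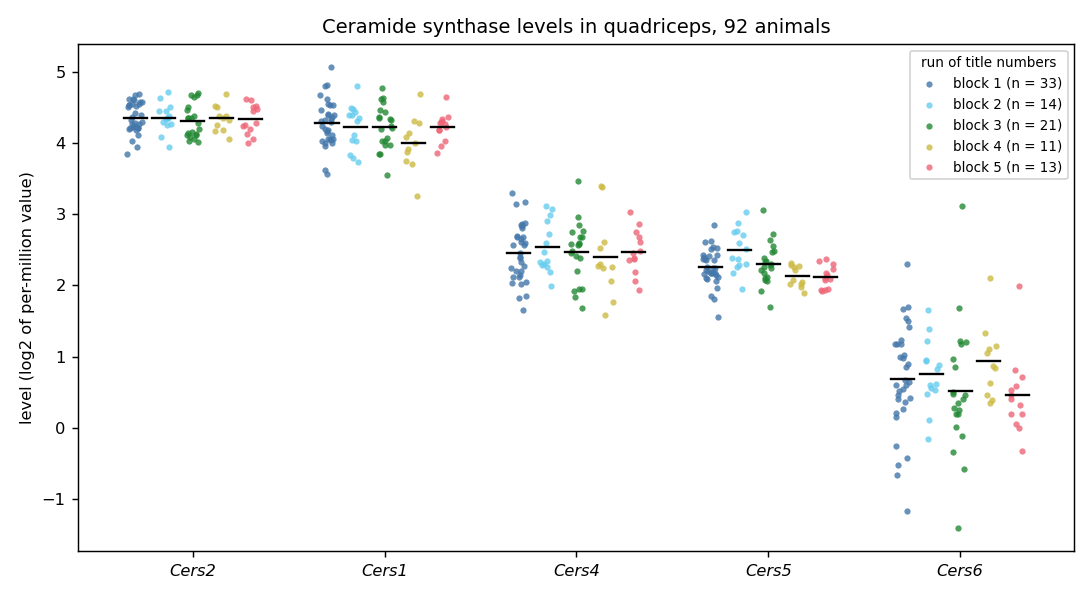
Level of each ceramide synthase (log2 per-million value, vertical axis) in the 92 animals. Each point is 1 animal, colours mark the 5 title-number blocks, and black lines are block means. Cers6 covers the widest range, from -1.40 to 3.11, and Cers5 is highest in block 2, where its mean is 2.50.

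Spread was set against abundance, because weakly expressed genes vary more in such data. The SD of Cers6, 0.707, compares with 0.572 from the trend of SD on mean over all genes, and 71.8% of genes exceeded their trend by less. Without animal 260 the SD was 0.661 and that share 66.5%. Cers4 had an SD of 0.407 against a trend of 0.366, with 62.3% of genes exceeding the trend by less. Cers5 lay under its trend, 0.272 against 0.385, and only 13.3% of genes lay further under theirs. Cers6 thus had the largest range of these genes, yet its spread lay within the range common for genes of its level.

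Levels of different genes can be compared only per length, and the order depended on it. The scaling of the deposited values is not given, so they may already hold a length correction. In that case the values with no further correction apply. Divided by merged exon length (12264 bases for Cers4, 3542 for Cers5 and 8875 for Cers6), mean levels on the log2 per-million-per-kilobase scale were 0.45 for Cers5, -1.15 for Cers4 and -2.50 for Cers6. Within animals, Cers5 exceeded Cers4 in 92 of 92, the log2 difference Cers4 minus Cers5 being -1.59 ± 0.52 (SD, n = 92), and Cers4 exceeded Cers6 in 87 of 92, by 1.35 ± 0.82. Each of the 3 pairwise differences had the smallest p-value that 100000 sign-flip permutations can give, 1e-05, two-sided. With no length correction the order of the upper pair reversed: Cers4 exceeded Cers5 by 0.20 and was higher in 64 animals (two-sided sign-flip permutation p = 0.00057). With the median transcript length, Cers4 minus Cers5 was -0.68, Cers4 minus Cers6 was 0.65 (Cers4 higher in 75 animals) and Cers5 minus Cers6 was 1.33. The directions per length thus held for the merged exon, median transcript and longest protein-coding transcript lengths, while the sizes moved by more than 1.5 times. The transcripts that muscle uses were not analysed here.

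Sequences before the RefSeq starts of the 2 synthases that favour the same acyl chain are shown, but the 2 stretches are not placed alike. They come from RefSeq (GRCm38.p6), 250 bases before the RefSeq start for Cers6, and for Cers5 a stretch of its 250-base window that lies in no annotated exon. Capitals mark CACGTG (the E-box), CCAAT and GGGCGTGG, the reverse complement of CCACGCCC. The printed stretches lie at chr2:68861191-68861440 on the plus strand and chr15:99772602-99772674 on the minus strand. That of Cers6 runs up to its RefSeq start, 68861441, where the annotated gene also begins. That of Cers5 is 73 bases long and ends before its RefSeq start, 99772515, is reached. It also lies inside the annotated gene, which begins at 99772885. Motifs found elsewhere in the 250-base window of Cers5 are not printed.
Cers6: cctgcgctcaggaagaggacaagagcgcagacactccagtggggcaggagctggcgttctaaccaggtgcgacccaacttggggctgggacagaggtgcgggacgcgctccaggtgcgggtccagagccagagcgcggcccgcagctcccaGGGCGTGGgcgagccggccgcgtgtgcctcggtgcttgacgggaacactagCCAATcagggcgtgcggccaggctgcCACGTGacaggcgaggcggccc
Cers5: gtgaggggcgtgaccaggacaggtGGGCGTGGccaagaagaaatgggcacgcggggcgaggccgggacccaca

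The motifs were searched on both strands in the 250 bases before the start of 32851 RefSeq windows. Cers6 held 1 CACGTG, 22 bases before its start, a motif found in 6.02% of all windows, and 1 CCAAT, 48 bases before it, found in 33.8%. Neither motif occurred in the windows of Cers4 or Cers5. GGGCGG, found in 32.7% of windows, occurred 2 times in the Cers5 window and 1 time in that of Cers4, and not in that of Cers6. CCACGCCC occurred 1 time in the Cers4 window, 2 times in that of Cers5 and 1 time in that of Cers6, against 4.79% of windows, but it was picked after the 3 sequences had been read. TATAAA (12.4% of windows) and TGANTCA (6.75%) occurred in none of the 3. The windows of Cers4 (RefSeq start 4493405) and Cers5 lie inside the annotated genes, whereas that of Cers6 lies before its gene. These motif counts are matches of letters only, and GGGCGG and CCACGCCC can lie in the same GC-rich stretch.

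No synthase among the 3 passed the test between title-number blocks. Cers5 had block means of 2.26, 2.50, 2.31, 2.12 and 2.12 in blocks 1 to 5, an unadjusted limma F-test p of 0.00136 and a Benjamini-Hochberg adjusted p of 0.302. The span of these means was larger than the SD over all animals, 0.27. For Cers4 and Cers6 the adjusted p was 0.986 and 0.849. Over all genes, 2 of 13441 passed (0.0149%), against 1120 (8.33%) with an unadjusted p under 0.05.

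The 3 synthases showed no shared rise and fall that passed the test. Pearson's r over the 92 animals was -0.13 for Cers4 with Cers5, -0.0084 for Cers4 with Cers6 and 0.16 for Cers5 with Cers6, with Spearman's rho of -0.11, -0.037 and 0.17. The last value fell to 0.058 without animal 260. Among the 9 pairs that hold at least 1 of the 3 genes, 0 passed after Benjamini-Hochberg adjustment, and an unadjusted permutation p under 0.05 was found for 2. These were Cers2 with Cers4, with r = 0.27 and rho = 0.28 (two-sided permutation p = 0.00874, adjusted p = 0.0787), positive in each of the 5 blocks and 0.25 without the 2 animals farthest from the median of Cers2, and Cers1 with Cers6, with r = -0.22 and rho = -0.10 (permutation p = 0.0356, adjusted p = 0.16), which was -0.15 without animal 260.

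Genes that rose with Cers6 included all listed macrophage markers and most listed fibroblast markers. In a limma slope of each gene on the standardised Cers6 level, 1373 of 13440 genes (10.2%) passed an adjusted p of 0.05 (Benjamini-Hochberg): 809 rose with Cers6 (6.02%) and 564 fell (4.2%). Slopes are given in log2 units for each SD of the synthase. Leaving out animal 260, an alternative added after the data were seen, left 531 genes, 413 rising and 118 falling, of which 516 were among the 1373. Most of the 1373 genes thus did not pass without that animal.

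Il13ra1, a receptor chain for interleukin 13, was the gene most like Cers6. Its level ran from 0.19 through a median of 1.71 to 4.36, and animal 260 was again the highest. Its slope was 0.37 ± 0.04 (SE) with r = 0.65 (limma adjusted p = 1.54e-08); r was 0.58 without animal 260 and between 0.58 and 0.89 in the 5 blocks. The next most alike by r were the adhesion molecule Vcam1 (0.61), the leukocyte actin bundler Lcp1 (0.61), the collagen chain Col5a2 (0.59), the lysosomal protease Ctss (0.59), the hyaluronan receptor Cd44 (0.59), Ptprc (0.59) and the lysosomal protease Lgmn (0.58). Within blocks, r stayed positive in all 5 for each of these except Lcp1, which had -0.058 in 1 block. Without animal 260 these 8 genes had r between 0.49 and 0.58.

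The genes most opposite to Cers6 had smaller slopes. Rufy1, an endosomal adaptor, was the furthest, with r = -0.52 and a slope of -0.08 ± 0.01 (SE; limma adjusted p = 5.96e-05), and its level ran only from 4.27 to 5.03. Znhit1 (-0.49), Dnajc21 (-0.49), the glycogen synthase kinase Gsk3a (-0.49), Ubxn6 (-0.49), Calcoco1 (-0.49), Ube2r2 (-0.48) and Dym (-0.47) followed by r. Ubxn6 was the only one of these 8 with a positive r in a block, 0.33. The slopes of these 8 lay between -0.09 and -0.07, while those of the 8 most alike lay between 0.24 and 0.58. Without animal 260 the r of the 8 opposite genes lay between -0.51 and -0.35, and the slopes of Dym and Dnajc21 were -0.05 and -0.06 in place of -0.08 and -0.09.

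All 10 macrophage markers rose with Cers6, against 6.02% of all genes, with a median r of 0.52 against -0.0086 for all genes tested. Cd68, a lysosomal protein of macrophages, ran from -0.22 through 1.71 to 4.64 and had r = 0.54. Mrc1, the mannose receptor, had r = 0.54, and the complement chain C1qb had r = 0.53. All 10 also passed without animal 260. The mean levels of the 10 markers lay between 1.59 and 5.38, with none at or near 0, and the macrophage score ran from -1.97 to 3.14. Their part in the Cers6 result was not tested. Fewer cells of a type and less RNA per cell cannot be told apart in whole muscle.

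Fibroblast and matrix markers moved in the same direction: 7 of 10 rose with Cers6 (median r 0.46), against 6.02% of all genes, and 8 of 10 rose without animal 260, against 413 of all 13440 genes. Col3a1, a fibrillar collagen, ran from 6.67 through 7.94 to 9.85 and had r = 0.56, followed by Col1a1 (0.54), Col1a2 (0.53) and the microfibril protein Fbn1 (0.50). Dcn, Gsn and Pi16 did not pass, with r of 0.22, 0.15 and 0.24. Ptprc, the only 1 of 8 lymphocyte-list genes in the table, rose, as did Vcam1 among 5 satellite cell markers, while Pax7, the defining marker of those cells, had r = 0.079. None of the endothelial, mural, adipocyte, Schwann, blood or slow fibre markers passed.

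Of 9 fast glycolytic fibre genes in the table, 4 fell with Cers6, against 4.2% of all genes, and 5 did not pass. Those that fell were the troponin Tnnt3 (r = -0.44), the calcium pump Atp2a1 (-0.36), Actn3 (-0.35) and Tnni2 (-0.32). The myosin genes Myh1 and Mylpf had positive r, 0.12 and 0.087. The levels of Tnnt3 ran only from 13.48 to 14.49. Without animal 260, Tnnt3 alone passed, when 118 of all 13440 genes fell.

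**Figure D2:**
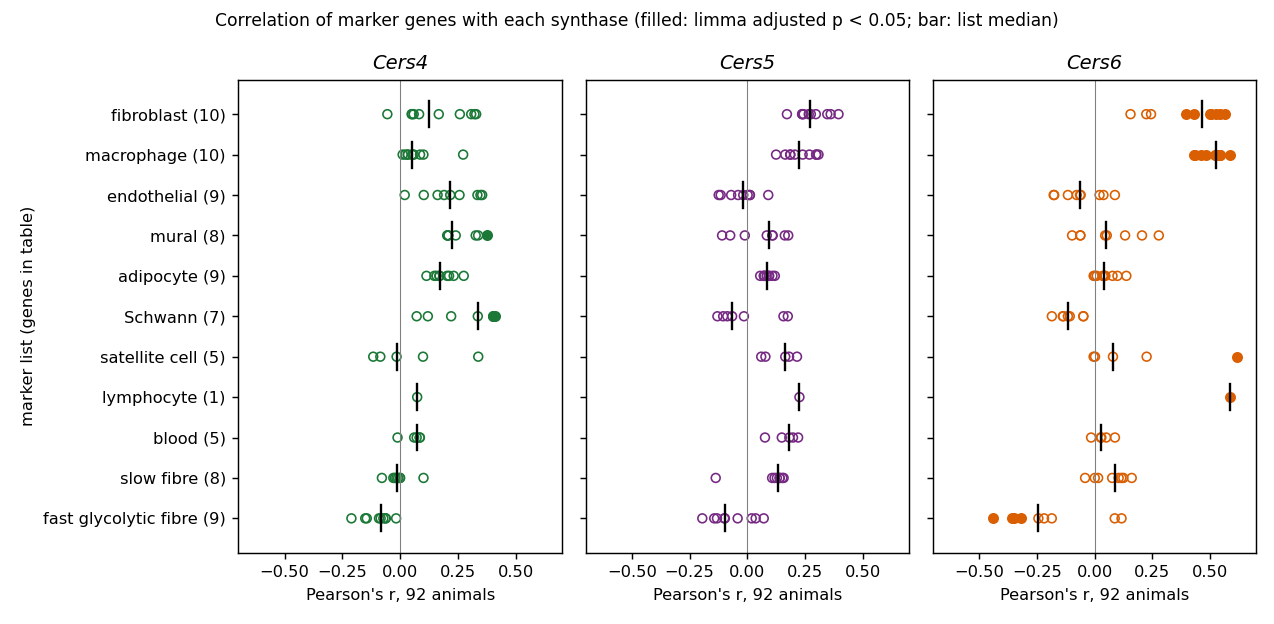
Pearson's r of each marker gene with Cers4, Cers5 and Cers6 over 92 animals (horizontal axis), by marker list (vertical axis, genes in the table in brackets). Filled points passed a limma adjusted p of 0.05 and bars are list medians. All 10 macrophage points are filled under Cers6 and 3 Schwann points under Cers4, with none filled under Cers5.

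A marker score, the mean of a list's standardised genes, gave 33 relations with the 3 synthases, of which 10 passed at an adjusted p of 0.05. Cers6 had r = 0.57 and rho = 0.50 with the macrophage score (the smallest permutation p possible, 1e-05, adjusted p = 0.00011), 0.46 once the 2 animals with the most extreme scores were left out, and 0.50 without animal 260. In the 5 blocks r ran from -0.023 to 0.86, so it was near 0 in 1 block. With the fibroblast score Cers6 had r = 0.52 and rho = 0.47 (permutation p = 1e-05, adjusted p = 0.00011), 0.50 without the 2 farthest animals, 0.48 without animal 260 and 0.26 to 0.74 in the blocks.

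The macrophage and fibroblast scores themselves had r = 0.81, so each was also taken with the other removed. The partial r of Cers6 with the macrophage score was then 0.30 (permutation p = 0.00458, adjusted p = 0.0358 over 12 relations) and 0.22 without animal 260, while that with the fibroblast score was 0.13 (adjusted p = 0.295). With the mural score removed, Cers6 had a partial r of -0.26 with the Schwann score (permutation p = 0.0144, adjusted p = 0.0432), and -0.20 without animal 260. The plain r of this pair was -0.16 and did not pass (permutation p = 0.115, adjusted p = 0.237). It was negative in only 3 of the 5 blocks and -0.090 without animal 260. All 11 scores together accounted for 34.9% of the variance of Cers6 after adjustment for their number, against 21.7% for Cers2, 14.7% for Cers4, 8.37% for Cers5 and 4.73% for Cers1. Without animal 260 these shares were 25.1% for Cers6, 22.9% for Cers2, 14.3% for Cers4, 4.57% for Cers5 and 0.376% for Cers1. When the macrophage and fibroblast scores entered the scan as covariates, 1 gene, Vcam1, passed for Cers6, although these scores contain some of the genes tested. Not every slope shrank with them: that of Rufy1 was -0.08 with the scores and without them (adjusted p = 0.0588 with them), and that of Znhit1 was also -0.08 in both fits.

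Ptprc, which stands alone for the lymphocyte list, had r = 0.59 and rho = 0.52 with Cers6 (permutation p = 1e-05, adjusted p = 0.00011), and 0.51 without animal 260. Cers6 had weaker relations with 2 further scores, which both lost their call without that animal. With the satellite cell score r was 0.32 and rho 0.18 (permutation p = 0.00205, adjusted p = 0.00759), and r was 0.19 (adjusted p = 0.17) without it. With the fast fibre score r was -0.34 and rho -0.26 (permutation p = 0.001, adjusted p = 0.00471), and r was -0.23 (adjusted p = 0.107) without it. The fast fibre relation was negative in each of the 5 blocks, from -0.66 to -0.16.

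Single animals also departed from the relation with macrophage genes. The animal with the next highest Cers6 level after animal 260, 2.30, had a macrophage score of -1.01, rank 83 of 92. The next had a Cers6 level of 2.11 with a score of 2.71, rank 2, and the one after it 1.99 with a score of -0.47. At the low end, the animals at -1.40 and -1.17 had scores of -1.01 and -1.77, while the animal at -0.67 had a score of 0.32 and the next ones, at -0.58 and -0.52, had -1.87 and -0.93. The animal with the fifth highest Cers6 level, 1.69, had a score of 0.49. Of the 5 highest and 5 lowest animals, most thus followed the relation, and high Cers6 also occurred with a low score.

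**Figure D3:**
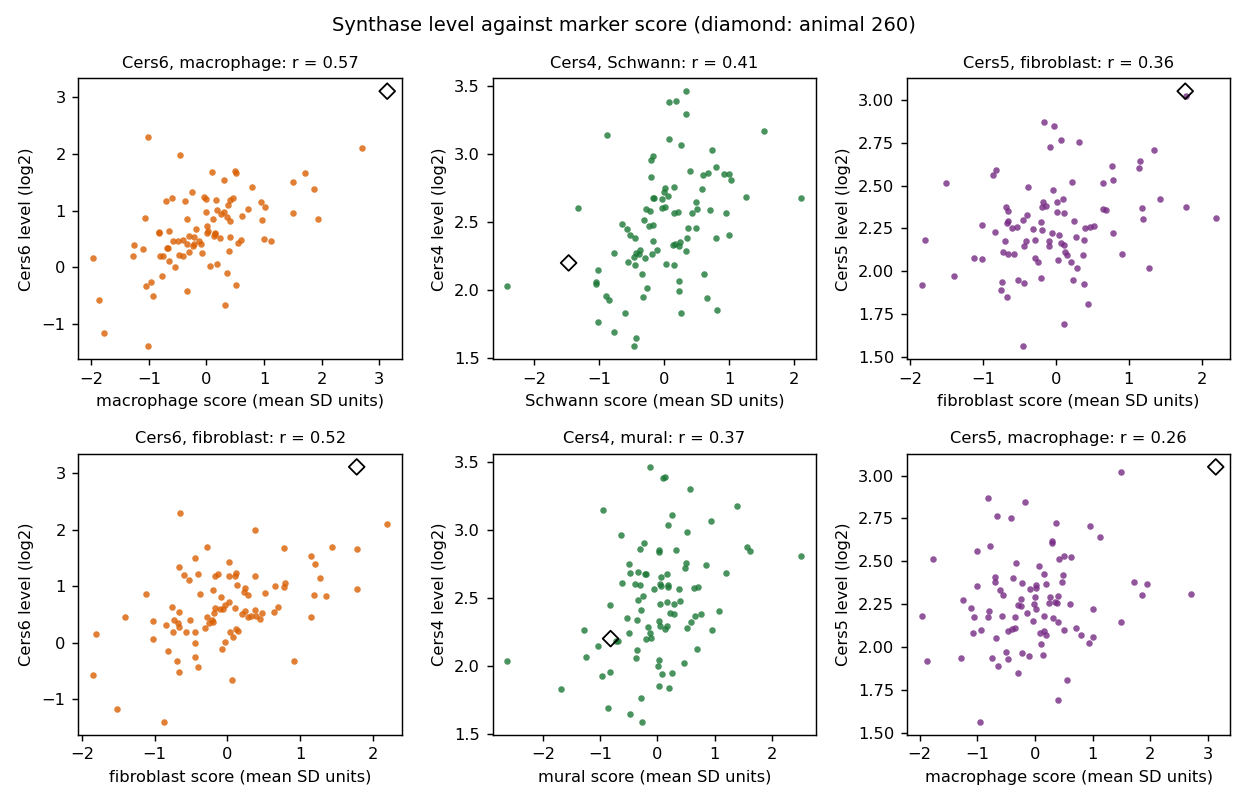
Level of Cers6, Cers4 or Cers5 (vertical axes, log2 per-million value) against marker scores (horizontal axes, mean of standardised genes in SD units) in 92 animals. Each point is 1 animal and the diamond is animal 260. The Cers6 panels have r of 0.57 and 0.52, the Cers4 panels 0.41 and 0.37, and the Cers5 panels 0.36 and 0.26.

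Genes of sphingolipid metabolism around the synthases were followed through 62 listed genes, of which 52 were in the table. With Cers6, 10 rose and 2 fell, against 6.02% and 4.2% of all genes. Without animal 260, 4 rose and 0 fell: Sgpl1, B4galt6, Sgms2 and Smpd3. In that fit 413 of all 13440 genes rose and 118 fell, so with 52 genes a count of 0 falling says nothing about the list.

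Of the breakdown genes, 3 of 7 rose, against 6.02% of all genes. Without animal 260, 1 of 7 rose, Sgpl1, when 413 of all 13440 genes rose. Sgpl1, the lyase that irreversibly cleaves sphingosine phosphate, ran from 2.62 through 3.34 to 4.64 and had a slope of 0.17 ± 0.03 (SE) with r = 0.54 (limma adjusted p = 1.04e-05) and 0.46 without animal 260. It was positive in each of the 5 blocks. The ceramidases Acer2 (r = 0.35) and Acer3 (0.31) rose too. Acer3, like the sphingomyelinase Smpd1 and Smpd3, was named after its values were seen.

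Of 8 glycosphingolipid and ceramide phosphate genes 3 rose, and of 8 sphingomyelin and transport genes 1 rose and 1 fell. Over all genes 6.02% rose and 4.2% fell. Without animal 260, 1 of the first 8 rose, B4galt6, and 2 of the second 8, Sgms2 and Smpd3, and 0 fell. B4galt6 makes lactosylceramide from glucosylceramide. It ran from 0.50 through 1.45 to 3.46 and had a slope of 0.26 ± 0.05 (SE) with r = 0.50 (limma adjusted p = 5.55e-05) and 0.42 without animal 260. The sphingomyelin synthase Sgms2 ran from -0.22 through 1.20 to 3.83, with a slope of 0.33 ± 0.07 (SE), r = 0.44 (limma adjusted p = 0.000688) and 0.40 without animal 260. Ugcg, which makes glucosylceramide, had r = 0.39, and the ceramide kinase Cerk had 0.35, but Cerk was positive in only 3 of 5 blocks. The lysosomal sphingomyelinase Smpd1 fell (r = -0.30). Sgms1, the other sphingomyelin synthase, had r = -0.11 and did not pass.

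Of the 8 genes listed under sphingoid base synthesis, 1 rose with Cers6, against 6.02% of all genes. This was Degs1 (r = 0.31), the desaturase that acts just after the synthases and turns dihydroceramide into ceramide, and the other 7 did not pass, among them the serine palmitoyltransferase subunits Sptlc1 (r = 0.10) and Sptlc2 (0.28). Of 21 genes of acyl-CoA supply, the elongation dehydratases Hacd3 (0.37) and Hacd4 (0.35) rose and the acyl-CoA synthetase Acsl6 fell (-0.31), which is close to the 6.02% and 4.2% of all genes. Elovl6 and Elovl1 had r of 0.12 and 0.13. Without animal 260, Ugcg, Hacd3, Hacd4, Cerk, Acer2, Acsl6 and Degs1 had adjusted p between 0.0601 and 0.204 and did not pass.

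**Figure D4:**
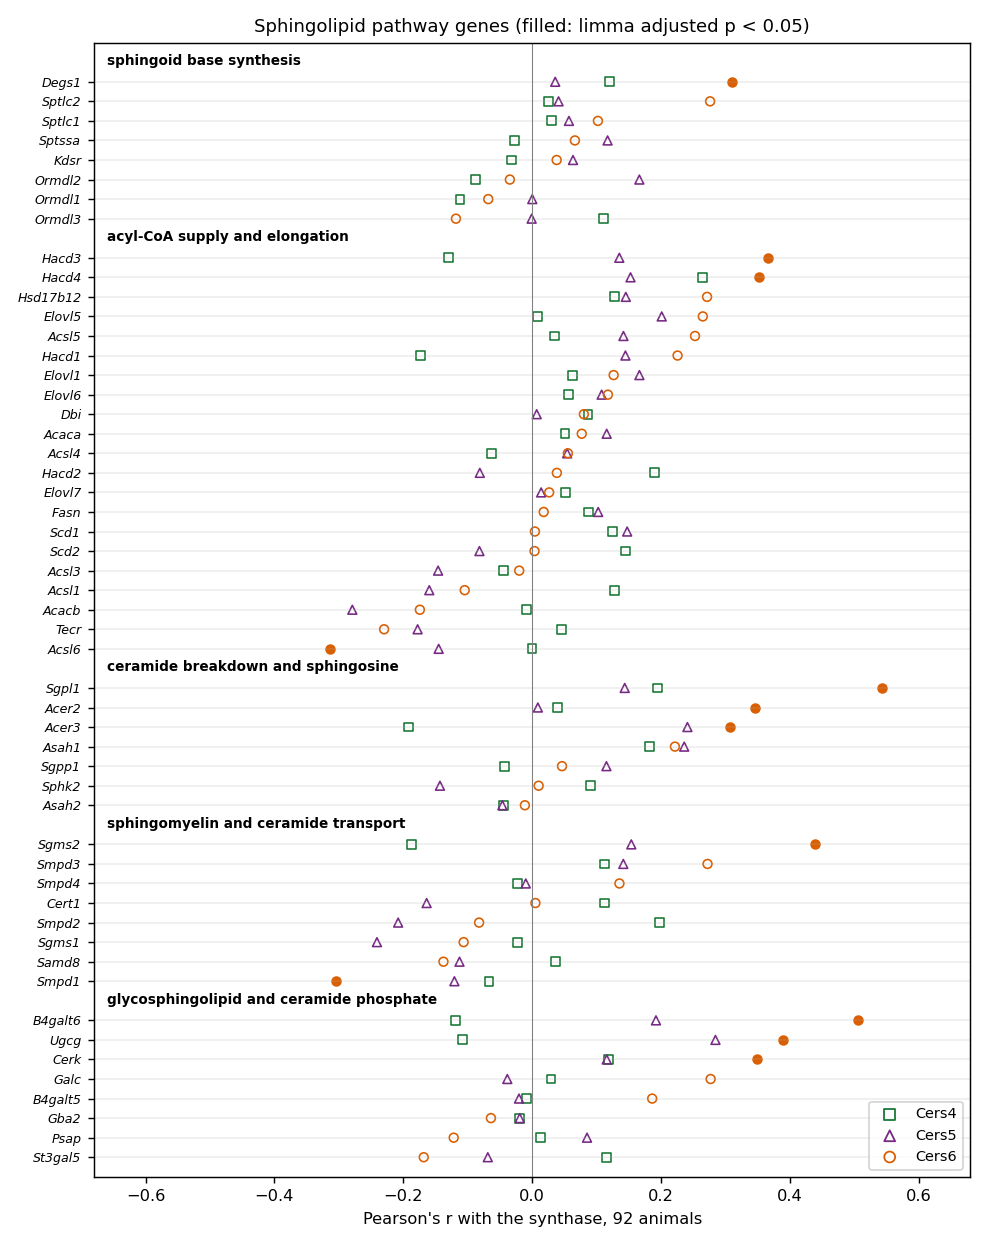
Pearson's r of 52 sphingolipid genes (rows, by step of the pathway) with Cers4 (squares), Cers5 (triangles) and Cers6 (circles) over 92 animals. Filled symbols passed a limma adjusted p of 0.05. Only circles are filled, 12 in all, led by Sgpl1 at 0.54 and B4galt6 at 0.50.

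Genes that rose with Cers4 included 3 of 7 Schwann cell markers and the mural cell receptor Notch3. The same slope test called 78 of 13440 genes (0.58%), 63 rising (0.469%) and 15 falling (0.112%), and 86 without animal 260. The count was 0 with 3 principal components as covariates, 1 with all marker scores and 13 with the macrophage and fibroblast scores. These covariates can also carry cell type differences. Plxdc1, an endothelial surface receptor, ran from -0.36 through 1.72 to 2.76 and had a slope of 0.28 ± 0.05 (SE) with r = 0.49 (limma adjusted p = 0.00459), though r was -0.24 in 1 block. The Wnt inhibitor Dkk2 (r = 0.49), C1qtnf1 (0.48), the beta-catenin cofactor Bcl9l (0.47), the protocadherin Fat4 (0.46), the guidance ligand Slit3 (0.45), the basement membrane collagen Col4a4 (0.45) and the cytoskeletal adducin Add3 (0.45) followed. Add3 also had a negative r in 1 block, -0.26, and the other 6 were positive in all 5.

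Of the genes most opposite to Cers4, Prep came first. Prep, prolyl endopeptidase, ran from 4.25 through 4.75 to 5.15 and had r = -0.48 with a slope of -0.08 ± 0.02 (SE; limma adjusted p = 0.00591), and it was negative in each of the 5 blocks. The proton pump subunit Atp6v1d (-0.46), the ubiquitin-conjugating enzyme Ube2g2 (-0.44), Cebpz (-0.44), Tceal9 (-0.43), the deubiquitinase Usp2 (-0.40), the mitochondrial ribosomal protein Mrpl28 (-0.40) and the glucosyltransferase Alg8 (-0.39) followed by r. Mrpl28 and Alg8 had adjusted p of 0.111 and 0.0638 without the 2 animals farthest from the median Cers4 level.

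Of 7 Schwann markers, 3 rose with Cers4, against 0.469% of all genes, with a list median r of 0.34 against -0.0010 for all genes. Prx, a protein of myelinating Schwann cells, ran from 0.34 through 2.22 to 3.49 and had a slope of 0.20 ± 0.05 (SE; limma adjusted p = 0.0222) with r = 0.40. The myelin gene Mbp also had r = 0.40 (limma adjusted p = 0.0212). S100b (0.34), Sox10 (0.22) and Cnp (0.12) did not pass, so the lineage factor Sox10 was not among the genes that rose. Notch3, a receptor of mural cells, rose as 1 of 8 mural markers (r = 0.38). The same 4 genes passed without animal 260. No fibroblast, macrophage or endothelial marker passed, and 0 of 52 sphingolipid genes did, which lists of this size would also show at the 0.58% of all genes.

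As scores, the Schwann list had r = 0.41 and rho = 0.46 with Cers4 (permutation p = 3e-05, adjusted p = 0.000247) and 0.41 without the 2 farthest animals or without animal 260, with 0.23 to 0.67 in the blocks. The mural score had r = 0.37 and rho = 0.35 (permutation p = 0.00036, adjusted p = 0.00238; 0.21 to 0.46 in the blocks) and the endothelial score r = 0.32 and rho = 0.32 (permutation p = 0.00207, adjusted p = 0.00759; 0.18 to 0.38 in the blocks). The mural and endothelial values without the 2 farthest animals were 0.35 and 0.26, the latter with an adjusted p of 0.05. The fibroblast score had r = 0.20 and rho = 0.18 with Cers4 (permutation p = 0.0541, adjusted p = 0.128), and 0.29 (adjusted p = 0.0234) without its 2 farthest animals. Schwann and mural scores had r = 0.56 with each other. With the mural score removed the Schwann relation was 0.27 (permutation p = 0.00895, adjusted p = 0.0358), and with the Schwann score removed the mural relation was 0.18 (adjusted p = 0.146). Whether nerve and vessel content accounts for the Cers4 values was not tested beyond these scores.

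Cers5 had almost no correlates at this threshold. The slope test called 3 of 13440 genes (0.0223%), all rising: Capn6 (r = 0.45), Glipr2 (0.44) and Ctsk (0.44), each with a limma adjusted p of 0.0377. Ctsk, the collagen-degrading cathepsin K, ran from 0.43 through 1.66 to 4.30, and its highest value was again in animal 260. Without that animal 0 genes passed by limma, with 1065 at an unadjusted p under 0.05, and r was 0.36 for Capn6, 0.40 for Glipr2 and 0.36 for Ctsk. With all animals, 1655 genes (12.3%) had an unadjusted p under 0.05, against 1857 (13.8%) for Cers4 and 3196 (23.8%) for Cers6. No sphingolipid or marker gene passed for Cers5.

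Marker scores gave a relation for Cers5 where single genes did not. With the fibroblast score Cers5 had r = 0.36 and rho = 0.30 (permutation p = 0.00044, adjusted p = 0.00242), 0.32 without the 2 farthest animals and 0.31 without animal 260, with 0.026 to 0.53 in the blocks. With the macrophage score removed it was 0.27 (permutation p = 0.00874, adjusted p = 0.0358). With the macrophage score r was 0.26 and rho 0.18 (permutation p = 0.0139, adjusted p = 0.0459), but 0.16 (adjusted p = 0.293) without animal 260 and 0.22 (adjusted p = 0.11) with the title-number block means removed.

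Whether the synthases differ in their correlates was tested with all 3 in 1 limma model, as the difference between their slopes. Between Cers6 and Cers4, 227 of 13438 genes (1.69%) passed at a Benjamini-Hochberg adjusted p of 0.05, 157 with the higher slope on Cers6 (1.17%) and 70 with the higher slope on Cers4 (0.521%). Without animal 260 the count was 46. Cd44 had a slope of 0.34 on Cers6 and -0.08 on Cers4, a difference of 0.42 ± 0.07 (SE; limma adjusted p = 0.000338). Lgmn (0.29), the membrane protein Emp1 (0.36), the cytoplasmic actin Actg1 (0.16) and Vcam1 (0.28) followed as differences. On the Cers4 side, the methyltransferase Inmt had a difference of -0.68 ± 0.11 (SE; adjusted p = 0.000338), with slopes of -0.33 on Cers6 and 0.35 on Cers4. The caveolar protein Cavin2 (-0.19), Plxdc1 (-0.36), Tmem201 (-0.11) and Aatk (-0.37) followed.

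The listed genes that passed this test between Cers6 and Cers4 included Cd68, Ctss, Col1a1, Col3a1, Ptprc, Vcam1, Sgms2 and B4galt6 with the higher slope on Cers6, and 3 Schwann genes and the endothelial receptor Kdr with the higher slope on Cers4. Kdr was named after its values were seen (difference -0.21 ± 0.06, SE; limma adjusted p = 0.0337). The other 8 macrophage markers did not pass it. Between Cers6 and Cers5, 1 gene passed (0.00744%), the membrane protein Mctp1, with a difference of 0.57 ± 0.11 (SE; limma adjusted p = 0.0334) and a mean level of only -0.69. At an unadjusted p under 0.05 there were 1124 genes (8.36%). This gene lies under the mean of 1 set for naming and was named after its values were seen. Between Cers4 and Cers5, 0 genes passed by limma, with 1188 (8.84%) at an unadjusted p under 0.05. The counts of 1373 for Cers6 and 3 for Cers5 therefore do not show that single genes followed the 2 synthases differently.

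Chromosomal neighbours were counted as genes that start within 5 Mb of each synthase. For Cers4 0 of 29 passed and for Cers5 0 of 116, against 0.58% and 0.0223% of all genes. With so few genes called, counts of 0 say nothing about these neighbours. For Cers6 3 of 44 passed, which is 6.82% against 10.2% of all genes, so its neighbours did not stand out. The 3 were Wipf1, an actin regulator of leukocytes, 4.57 Mb away (r = 0.39), the mitochondrial carrier Slc25a12, 2.41 Mb away (-0.38), and Phospho2, 0.928 Mb away (-0.32). Phospho2 did not pass without animal 260.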

How the data were processed

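Polyadenylated RNA of 92 quadriceps was measured. The deposited table holds log2 values, 13456 lines, of which 15 were repeats. Summed on the linear scale a sample gave 898071 to 1140761, so the values are per-million to a close approximation. Per the submitters' processing notes, bcl2fastq, MultiQC, kallisto 0.50.1, edgeR and build mm10 were used, with no roles stated. The scaling, prior count, filter on low genes, transcript annotation and depth are not given in the sources used here, so no count model was used and precision comes from the spread between animals. P-values assume that the 92 samples are separate animals.

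Slopes were fitted with limma 3.58.1 in R 4.3.3 (empirical Bayes with a mean-variance trend, two-sided, Benjamini-Hochberg over all genes tested), and the scripts were tested on simulated data. For relations, p-values of Pearson's r and of Spearman's rho come from 100000 permutations (two-sided, numpy 2.4.6). Positions and lengths come from GENCODE M21, which has the build of the table and gave positions for 13255 genes, while 186 had none. Named genes were up to 8 in each direction per synthase by r among genes past the threshold with a mean of at least 1, up to 10 pathway genes, up to 4 per marker list with a gene that passed, up to 5 neighbours and up to 5 per direction for slope differences. The members, gene lists and tests were chosen with earlier results of these data known. Alternatives were the title-number block, 3 principal components or marker scores as covariates, animals left out, other scales, filters and lengths. Values of some single genes are not reported here.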

Additional observations from a re-analysis of the deposited data

How the results depend on the processing

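No paired analysis was possible because the labels give 1 group. With the first 3 principal components as covariates, which can also carry the cell type differences, the counts of associated genes were 0 for Cers4, 0 for Cers5 and 0 for Cers6 (898, 1023 and 989 at an unadjusted limma p under 0.05), the slope differences of Cers6 with Cers4 and with Cers5 were 0 and 0, and the title-number block count was 0. With the marker scores as covariates, which contain the markers tested, the counts were 1, 0 and 0, and the difference between Cers6 and Cers4 was 0. The macrophage and fibroblast scores alone, added after seeing the data, gave 13, 0 and 1. The Cers5 count of 3 became 0 with the block as a covariate, without the 2 farthest animals, with normal scores or without animal 260, 16 on log2(value + 1), and 13 among genes whose mean was 1 or more. The Cers6 count of 1373 became 469 without the 2 farthest animals and 531 without animal 260, an alternative added after seeing the data that took the difference between Cers6 and Cers4 from 227 to 46. The causes were not tested. The title number as a continuous covariate called 1 gene. The neighbours of Cers6 were 1 within 2 Mb and 5 within 10 Mb. Cers4 minus Cers5 was 0.20 with no length. The Cers6 slopes reversed for Hacd4 (-0.0366 with marker scores, -0.00984 with the macrophage and fibroblast scores), C1qb (-0.0300) and Actn3 (0.0014) with principal components. Of 70 slopes of single genes, 7 had not passed in the main fit. These were Cspg4, Myh11, Rgs5 and S100b with Cers4, and Chodl, Pax7 and Heyl with Cers6. The call was lost for 3 slopes with the block, 5 with normal scores and 18 without the 2 farthest animals. It was lost for 61 with principal components (2 more reversed), 62 with marker scores (1 more) and 54 with the macrophage and fibroblast scores (1 more). With principal components or marker scores, no called slope thus kept both its call and its direction. Some slopes stayed about as large, among them Prep with Cers4 (-0.08 against -0.07 with principal components or marker scores). Without animal 260 the call was lost for 17 values, 3 of them marker scores. Unknown depth limits low values, Cers6 most of all.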
